A study of Homo sapiens with 95 samples.

Results

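The transcripts described here are those of 9 human glutathione S-transferases, chosen by name and read under their symbols from the 23895 genes listed for every well. They are the soluble enzymes GSTP1, GSTM3, GSTA4, GSTO1 and GSTZ1, the mitochondrial and peroxisomal GSTK1, and the membrane-bound MGST1, MGST2 and MGST3. Expression was measured by 3′ digital gene expression (3′DGE), in which every captured molecule carries a unique molecular identifier (UMI) and the 3′ end of its transcript is read, in 95 wells of AALE cells. AALE is a bronchial epithelial line of human origin that has been immortalized. Of its 8 populations, 4 overexpressed PIK3CA, NRG1, FGFR1 or NRF2 (the product of NFE2L2), and a population with an empty vector holding the reporter HcRed was their control. CRISPR knockout was directed at CDKN2A or FAT1 in another 2 populations, and their control, GFP, had received the pSpCas9-EGFP plasmid PX458 with no guide RNA. Wells of each population were treated with the DMSO vehicle, with cigarette smoke condensate (CSC, 24 µg/ml), with the polycyclic hydrocarbon benzo[a]pyrene (BaP, 173 µM) or with the tobacco nitrosamine NNK (490 µM), at a single dose each. The labels give neither clones nor separate transfections, so p-values measure the spread between wells, which may be technical. In fits of 6 wells that spread was mostly pooled over genes, and a member's own spread entered little.

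Glutathione S-transferases join the tripeptide glutathione to electrophilic compounds, among them the diol epoxides formed when cells oxidise BaP and the aldehydes formed when lipids are oxidised. The conjugates are exported and trimmed to mercapturic acids. The soluble enzymes fall into classes named by Greek letters, and the microsomal enzymes belong to a separate family of membrane proteins, MAPEG, several of which make leukotrienes or prostaglandins. Genes of the family are known targets of NRF2, which binds the antioxidant response element after oxidative stress, and some are targets of the aryl hydrocarbon receptor (AHR), which is activated by polycyclic hydrocarbons and binds the xenobiotic response element.

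Windows upstream of the members' start sites are shown for the members whose level is reported below to differ under a chemical or between populations and which held a motif there. The RefSeq promoter table (GRCh38.p14) matched 8 of the 9 members, all except MGST2, with 10 windows, and 2 motifs were searched on both strands from 250 bases before to 50 bases after the start. The core of the antioxidant response element, TGACNNNGC, was found in 13.3% of all 35116 windows, and among the members in GSTP1, GSTO1, GSTA4 and 1 window of MGST1. The core of the xenobiotic response element, GCGTG, was found in 36.5% of all windows, and among the members in GSTM3, MGST3 and GSTZ1. Each sequence below gives the 250 bases before the start, 5′ to 3′ on the strand of the gene, with motif matches in capitals.
GSTP1 (chr11:67583562-67583811, plus strand): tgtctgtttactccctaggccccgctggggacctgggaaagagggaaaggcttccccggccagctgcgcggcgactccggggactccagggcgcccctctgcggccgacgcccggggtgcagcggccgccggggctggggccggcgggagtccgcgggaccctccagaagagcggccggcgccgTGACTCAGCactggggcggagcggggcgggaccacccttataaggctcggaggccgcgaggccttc
GSTO1 (chr10:104254642-104254891, plus strand): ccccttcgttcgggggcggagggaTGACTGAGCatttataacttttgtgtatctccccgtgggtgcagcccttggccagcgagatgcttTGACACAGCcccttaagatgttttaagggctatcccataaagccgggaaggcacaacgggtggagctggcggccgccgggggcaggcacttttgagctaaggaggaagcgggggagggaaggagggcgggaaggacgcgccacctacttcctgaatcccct
GSTA4 (chr6:52995285-52995534, minus strand): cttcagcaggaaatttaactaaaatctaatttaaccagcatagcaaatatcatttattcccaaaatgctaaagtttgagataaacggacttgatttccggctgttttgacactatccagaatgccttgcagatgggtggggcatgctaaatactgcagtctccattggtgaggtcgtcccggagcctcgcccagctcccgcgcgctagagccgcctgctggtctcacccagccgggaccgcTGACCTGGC
GSTM3 (chr1:109741039-109741288, minus strand): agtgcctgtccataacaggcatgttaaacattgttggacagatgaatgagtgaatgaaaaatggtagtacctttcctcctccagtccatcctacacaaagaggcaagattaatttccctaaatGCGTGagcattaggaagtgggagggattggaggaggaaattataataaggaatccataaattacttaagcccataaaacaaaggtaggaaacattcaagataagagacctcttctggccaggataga
GSTZ1 (chr14:77320786-77321035, plus strand): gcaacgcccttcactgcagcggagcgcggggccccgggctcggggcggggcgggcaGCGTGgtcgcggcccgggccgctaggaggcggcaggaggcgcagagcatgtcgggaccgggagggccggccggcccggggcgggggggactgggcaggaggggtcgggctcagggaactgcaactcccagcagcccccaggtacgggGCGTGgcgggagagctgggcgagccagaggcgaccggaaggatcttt
MGST3 (chr1:165630984-165631233, plus strand): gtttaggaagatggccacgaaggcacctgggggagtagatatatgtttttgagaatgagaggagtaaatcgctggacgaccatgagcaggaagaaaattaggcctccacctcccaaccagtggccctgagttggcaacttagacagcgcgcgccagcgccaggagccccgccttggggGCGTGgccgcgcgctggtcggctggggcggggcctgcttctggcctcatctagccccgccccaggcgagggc

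With the start site as position 0, the match of GSTP1 began at -66, those of GSTO1 at -226 and -161, and that of GSTA4 at -9. The match of GSTM3 began at -127 that of MGST3 at -72 and those of GSTZ1 at -194 and -47, while that of MGST1 began at 30, inside its transcript and outside the stretch shown. GSTK1 held neither core in this window. A match describes letters only, and binding was not measured.

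Depth set the precision. Total UMI counts ran from 692446 to 1895735 in the 82 wells with a 1-digit replicate number, which entered the comparisons, so that 1 count was worth 0.5275 to 1.444 CPM (UMI counts per 1000000 counted in the well). Another 13 wells in 6 groups carried 2-digit numbers and entered no main comparison. NRG1 NNK replicate 2 stood apart from the other wells of its group, with a chi-square per degree of freedom of up to 11.8, and held the lowest MGST3 and GSTA4 levels of all wells. Under DMSO every well of each overexpression population lay above every control well for its targeted gene, and every FAT1 and CDKN2A well lay below every GFP well for its own. FAT1 was low in both, at 0 to 3.4 CPM against 5.86 to 11.6 CPM in GFP wells. CDKN2A transcript remained, at 19 to 23.8 CPM against 34.9 to 38.6 CPM. Transcript levels do not show whether a knockout removed the protein, which was not measured here. Epithelial markers were present (6 of 6 genes, 301.6 to 762.8 CPM in sum, and 9 of 10 basal markers at 1 CPM or more), and those of secretory or ciliated airway cells summed to 5.679 CPM at most. Each plate row held 1 chemical, and a chemical filled more than 1 row. Each population kept its columns and its place among the rows of a chemical. HcRed and NRF2 cells, for example, shared columns in different rows. Neither chemical nor population can therefore be told apart from position on the plate.

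All 9 members were detected in each of the 82 wells. MGST1, a membrane enzyme with transferase and peroxidase activity (hg19 chromosome 12, 16500076 to 16762193), was the most abundant, at 1922 ± 379 CPM (SD, n = 82), and made up 41.99% of the summed UMIs of the 9 members. GSTP1, the pi-class enzyme and an abundant one in airway epithelium (chromosome 11, 67351213 to 67354127), followed at 1008 ± 187 CPM. MGST3 (chromosome 1, 165600450 to 165631033), a peroxidase that can also make leukotriene C4, stood at 845.1 ± 145 CPM. The ranges of neighbours in this order overlapped over the 82 wells.

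GSTM3, a mu-class enzyme (chromosome 1, 110276554 to 110283660), averaged 282.1 ± 104 CPM. GSTK1 (chromosome 7, 142941186 to 142967947) averaged 237.2 ± 52.1 CPM. MGST2 (chromosome 4, 140586922 to 140661899), another leukotriene C4 synthase, averaged 147.7 ± 22.6 CPM. The omega-class GSTO1, which reduces dehydroascorbate and methylated arsenic (chromosome 10, 105995114 to 106027217), averaged 70.23 ± 17 CPM. GSTA4, the alpha-class enzyme with a preference for the lipid aldehyde 4-hydroxynonenal (chromosome 6, 52842746 to 52860102), averaged 36.85 ± 11.6 CPM. GSTZ1, the zeta-class enzyme of tyrosine breakdown (chromosome 14, 77787339 to 77797940), rested on 1 to 15 counts in a well, at 4.724 ± 2.17 CPM, and differences in it are poorly determined.

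UMI counts of 3′ ends do not scale with transcript length, so these levels are set side by side in CPM. How well each member's 3′ end was captured was not measured, and the order of the members depends on it. Several members overlap other genes on the opposite strand, among them GSTM3, whose neighbour GSTM5 was at 0 in all wells. On the same strand MGST1 overlaps 2 long noncoding RNAs and a processed pseudogene, and GSTA4 a Y RNA, and reads shared with these were not examined beyond the following sequence match. Within the last 500 bases of each member's transcript no stretch of 46 bases or more matched another gene at 98% identity. Of 17 other genes of the transferase and MAPEG families, 6 averaged 1 CPM or more, the 17 together summed to 59.33 to 145.8 CPM in a well, and GSTA1, GSTA5, GSTM5, GSTT2, GSTT2B and HPGDS had no count in any well. The 9 members summed to 4093 ± 456 CPM under DMSO (n = 24), 5070 ± 541 under CSC (n = 17), 4743 ± 561 under BaP (n = 19) and 4497 ± 505 under NNK (n = 22). The populations are not balanced between these sums: 3 of the DMSO wells and none of the CSC wells were CDKN2A cells, where MGST1 was lowest, so they were not compared.

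**Figure D1:**
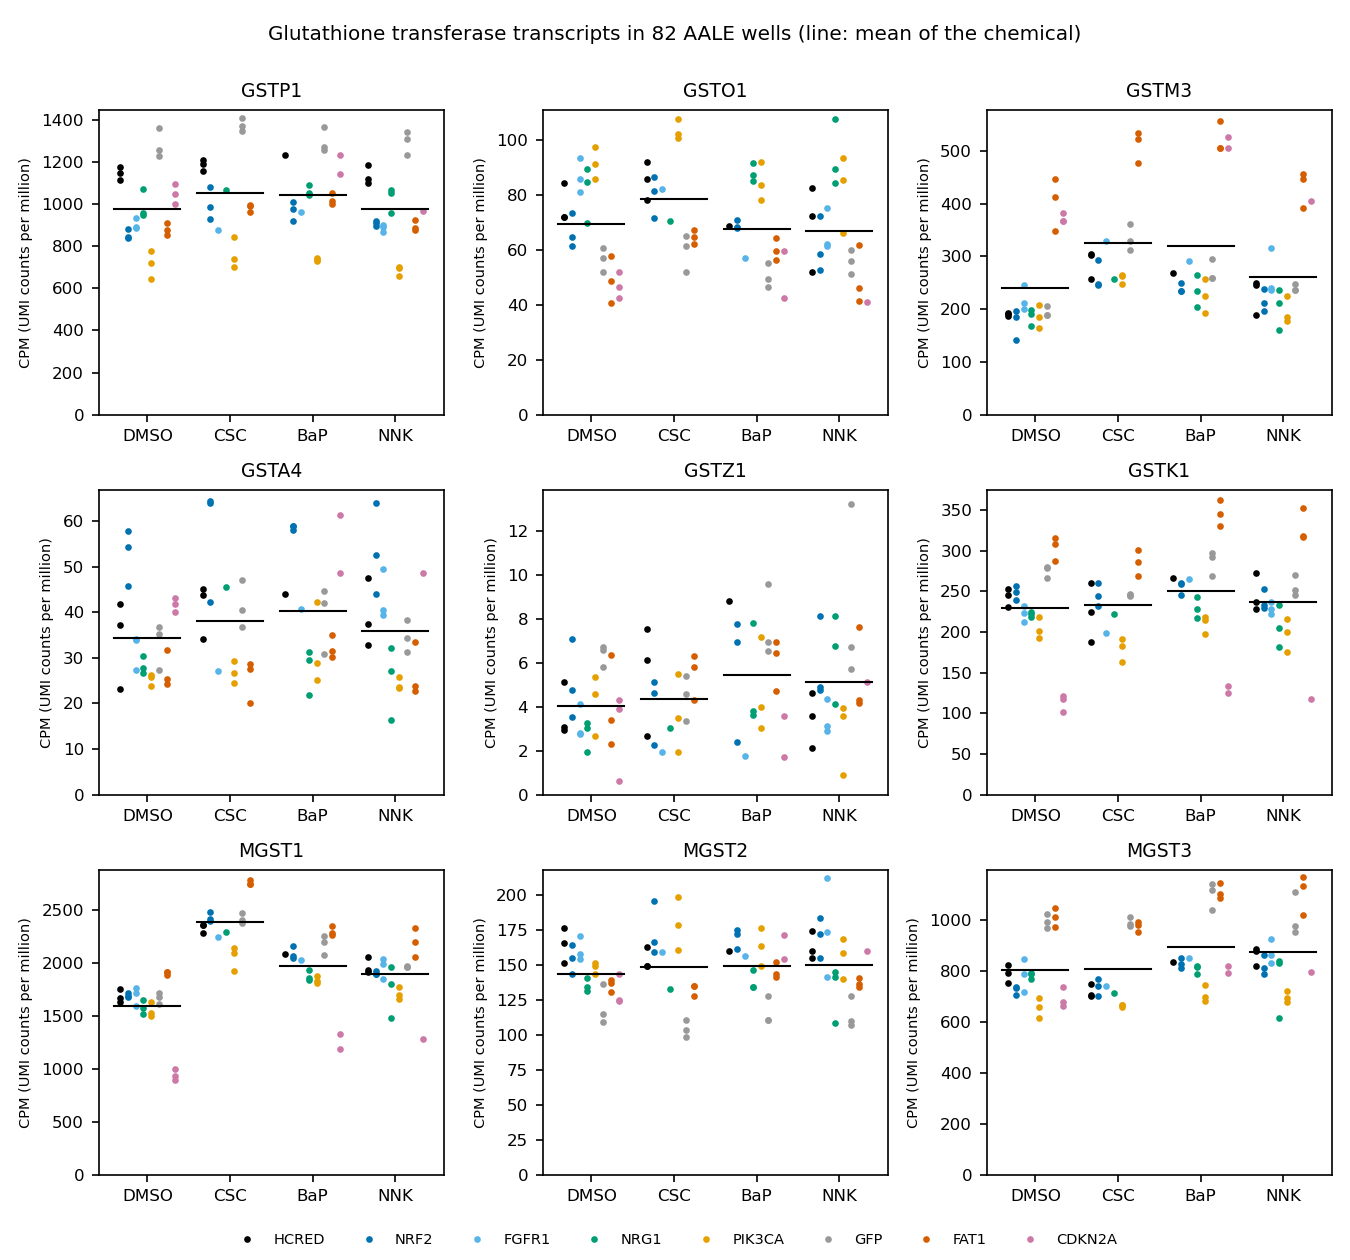
CPM of each of the 9 members (vertical axes, linear from 0) in the 82 wells by chemical, with points coloured by population and a line at the mean of the chemical. MGST1 sits at 1917 to 2783 CPM under CSC and at 889.3 to 1916 CPM under DMSO. The populations differ between these ranges: the lowest DMSO points (889.3 to 996.4 CPM) are CDKN2A wells, which are absent from the CSC points. The FAT1 and CDKN2A points of GSTM3 (348.9 to 557.4 CPM) sit above most others.

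The first question was which of these transcripts respond to smoke condensate. Under CSC the MGST1 and GSTM3 transcripts rose most over the populations together and those of GSTP1 and GSTO1 rose by less, while no member was called lower. CSC was compared with DMSO over HcRed, NRF2, PIK3CA, GFP and FAT1 cells, 15 wells each, by limma-voom with population as a covariate. Of the 9 members 4 were called higher (adjusted p below 0.05), against 5.82% of the 11371 genes tested called in either direction and 2.95% called higher. The median log2 fold change of the members was 0.12, and that of all genes tested was -0.001.

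In HcRed cells MGST1 stood at 1751, 1629 and 1669 CPM in the DMSO wells and at 2353, 2357 and 2285 CPM in the CSC wells. In FAT1 cells, where it was most abundant, it stood at 1910, 1884 and 1916 CPM and at 2746, 2783 and 2746 CPM. The CSC wells did not overlap the DMSO wells in any of the 5 populations, and all were higher. Over all 5 the log2 fold change was 0.495 (SE 0.02, adjusted p = 3.06e-34), a 1.41-fold higher level. Within single populations it ran from 0.44 in PIK3CA cells to 0.52 in GFP cells and was called in each of the 5 fits.

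GSTM3 likewise separated the CSC wells from the DMSO wells in 5 of 5 populations. Its HcRed wells stood at 192.5, 190.4 and 187.4 CPM under DMSO and at 304.4, 302.4 and 257.4 CPM under CSC. In GFP cells they stood at 188.8, 189.4 and 206.7 CPM and at 311.5, 361.2 and 330.1 CPM. The log2 fold change was 0.53 (SE 0.04, adjusted p = 2.68e-16), 1.44-fold. Single fits called it in HcRed (0.63), NRF2 (0.56), PIK3CA (0.53) and GFP cells (0.76), and FAT1 cells gave 0.33 (adjusted p = 0.082).

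The smaller changes were those of GSTO1, called at 0.23 on the log2 scale (SE 0.06, adjusted p = 0.0068), and GSTP1, at 0.12 (SE 0.03, adjusted p = 0.00075). For each of them the wells separated fully in 2 of 5 populations. GSTP1 no longer passed in a single fit over all groups (adjusted p = 0.067), and GSTO1 no longer passed when the wells with 2-digit numbers and their populations were added (0.12, adjusted p = 0.12). GSTK1 had a log2 fold change of -0.11 (95% interval -0.19 to -0.03, adjusted p = 0.083) and MGST3 of -0.03 (-0.09 to 0.02), and neither they nor GSTA4, GSTZ1 or MGST2 were called. GSTK1 was called lower without any of 4 single wells, among them FAT1 CSC replicate 2 (-0.14, adjusted p = 0.017). Of the airway markers tested, 2 of 9 basal and 2 of 6 epithelial genes were lower under CSC, 4 and 1 under BaP, and 5 and 0 under NNK, where 1 gene of each list was higher. Their part in the transferase changes was not tested, and in bulk wells fewer cells of a kind and less RNA per cell cannot be told apart.

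BaP, a precursor of electrophiles that these enzymes conjugate, raised 5 of the 9 members, MGST1 and GSTM3 among them. The fit held NRF2, NRG1, PIK3CA, GFP and FAT1 cells, 15 wells each, and called 9.11% of 11306 genes in either direction and 4.68% higher. MGST1 averaged 2055 CPM under BaP and 1679 CPM under DMSO, with full separation in 5 of 5 populations and was higher by 0.32 on the log2 scale (SE 0.02, adjusted p = 8.62e-23). In NRF2 cells, for example, its wells went from 1688, 1679 and 1713 CPM to 2159, 2048 and 2063 CPM. Each of the 5 single fits called it, from 0.25 in NRG1 cells to 0.44 in GFP cells, and the NRG1 call was lost without NRG1 DMSO replicate 2 (0.22, adjusted p = 0.0877).

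GSTM3 rose under BaP by 0.42 on the log2 scale (SE 0.04, adjusted p = 1.62e-11), with separation in 4 of 5 populations. Its FAT1 wells stood at 446.9, 348.9 and 413.5 CPM under DMSO and at 557.4, 505.7 and 506.4 CPM under BaP. The peroxidase MGST3 rose by 0.16 (SE 0.03, adjusted p = 2.66e-06) and GSTP1 by 0.14 (SE 0.03, adjusted p = 2.53e-05). GSTK1 also passed, at 0.115 (adjusted p = 0.035), but it lost the call when any of 10 single wells was left out, among them FAT1 DMSO replicate 1 (0.096, adjusted p = 0.085). GSTA4 (0.21, 95% interval 0.045 to 0.37), MGST2 (0.11, 0.02 to 0.20), GSTO1 and GSTZ1 did not pass.

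Under NNK 2 of the 9 members were called, MGST1 and GSTM3, in a fit of 7 populations with 21 wells each that called 7.22% of 11349 genes in either direction and 3.06% higher. MGST1 rose by 0.23 on the log2 scale (SE 0.05, adjusted p = 0.00035), and its NNK wells lay above every DMSO well in 6 of 7 populations. The exception was NRG1 cells, at 1571, 1515 and 1652 CPM under DMSO and 1801, 1477 and 1958 CPM under NNK, where the low value was that of the replicate 2 that stood apart. GSTM3 rose by 0.25 (SE 0.06, adjusted p = 0.0057) with separation in 1 of 7. Without NRG1 NNK replicate 2 the fit called 5 members, with MGST1 at 0.28, GSTM3 at 0.30, MGST3 at 0.20, MGST2 at 0.13 and GSTP1 at 0.10.

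Fits within single populations gave the same direction in each call. Over the 5 CSC fits 10 of 45 member tests were called, all higher, against 1.16% of all gene tests in those fits. Over the 5 BaP fits 12 of 45 were called, all higher, against 1.46%. Over the 7 NNK fits 10 of 63 were called, all higher, against 1.48%, and MGST1 accounted for 5 of them. Leaving out some single well ended 1 of the 10 CSC calls, 3 of the 12 BaP calls and 6 of the 10 NNK calls, those of MGST1 in GFP cells (adjusted p = 0.0897 without GFP NNK replicate 3) and PIK3CA cells (0.063 without PIK3CA DMSO replicate 1) among them. MGST1 was not called under NNK in FGFR1 cells (0.30, 95% interval 0.11 to 0.49, adjusted p = 0.13) or in NRG1 cells (-0.01, -0.61 to 0.60), and in the latter it was called at 0.30 without replicate 2.

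**Figure D2:**
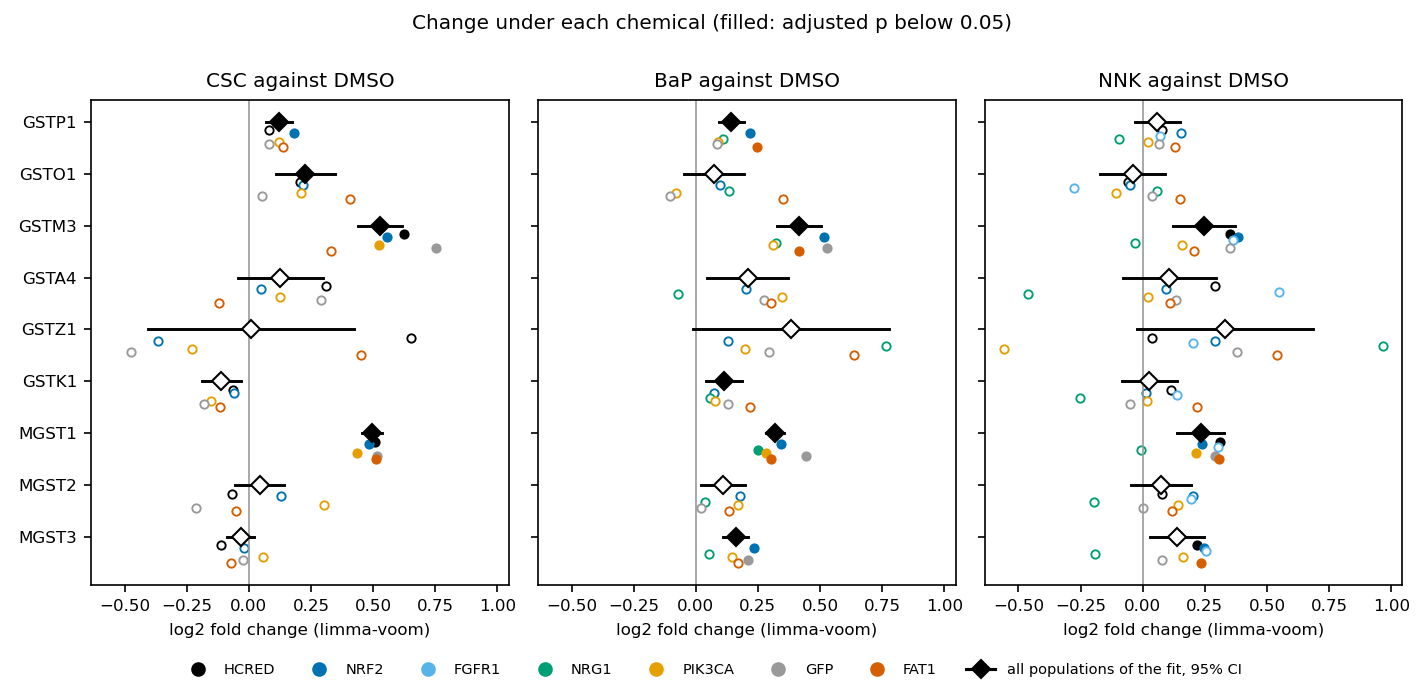
Log2 fold change (horizontal axes) of each member under CSC, BaP and NNK against DMSO, with diamonds and 95% intervals for the fit over all its populations and circles for single populations, filled where the adjusted p was below 0.05. The MGST1 and GSTM3 diamonds are filled in the 3 panels, from 0.23 to 0.53, and GSTZ1, at 1 to 15 counts a well, has the widest intervals.

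Direct comparisons between the chemicals, each at its own dose and in its own plate rows, separated the members further. MGST1 stood higher under CSC than under BaP by 0.15 on the log2 scale (SE 0.02, adjusted p = 1.21e-06), with separation in 4 of 4 populations, and higher than under NNK by 0.21 (SE 0.02, adjusted p = 8.34e-14), in 5 of 5. GSTM3 was higher under CSC than under NNK by 0.24 (adjusted p = 1.19e-05) and GSTO1 by 0.24 (adjusted p = 0.012). Against BaP the difference of GSTM3 was 0.07 (95% interval -0.02 to 0.16) and was not called.

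MGST3 and GSTK1 went the other way, with lower levels under CSC. MGST3 differed by -0.21 from BaP (adjusted p = 6.92e-07) and by -0.24 from NNK (adjusted p = 1.03e-08), with every CSC well below in 4 of 4 and 4 of 5 populations. GSTK1 differed by -0.26 (adjusted p = 2.12e-05) and by -0.20 (adjusted p = 0.00091), though with library totals alone the latter was -0.10 (adjusted p = 0.079). CSC against BaP thus called 3 of 9 members, where 4.58% of all genes tested were called, and CSC against NNK called 5, where 12.2% were. With library totals alone the median of all genes moved to 0.101 in CSC against NNK and the share of called genes that were higher went from 40.3% to 75.1%. BaP against NNK called no member by limma-voom, edgeR or DESeq2, and 0.996% of all genes. At an unadjusted p below 0.05 stood 1 of 9 members and 9.23% of all genes.

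These chemical effects were compared between populations in 6 interaction fits. No member was called in any of them by limma-voom, edgeR or DESeq2, where 0.0536% of all gene tests were called. At an unadjusted p below 0.05 stood 8 of 54 member tests and 6.1% of all gene tests in those fits. The CSC effect on GSTM3 was smaller in FAT1 than in GFP cells by 0.43 on the log2 scale (95% interval -0.69 to -0.17), with an adjusted p of 0.76. That on MGST1 differed between those populations by -0.01 (95% interval -0.17 to 0.15). These fits do not show that the populations responded alike.

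The next question was whether the constructs changed the transferases without a chemical. Under DMSO, the NRF2 population showed 1 higher and 1 lower member against HcRed, where 4.92% of 11217 genes were called. GSTA4 was higher, with NRF2 wells at 54.3, 57.83 and 45.75 CPM and HcRed wells at 23.1, 41.91 and 37.17 CPM. The NRF2 wells lay above the HcRed wells, and the log2 fold change was 0.73 (SE 0.17, adjusted p = 0.0028). It was not called without HcRed DMSO replicate 1 (0.51, adjusted p = 0.10), under CSC (0.47, adjusted p = 0.18) or under NNK (0.52, adjusted p = 0.13), and was called over the 3 chemicals together (0.58, adjusted p = 8.73e-05).

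GSTP1 was lower in NRF2 cells, at 844.4, 882.4 and 839.8 CPM against 1113, 1179 and 1148 CPM in HcRed cells. Its log2 fold change was -0.33 (SE 0.05, adjusted p = 5.33e-08). None of the other members was called, among them MGST1 (0.11, adjusted p = 0.097), MGST3 (-0.03), GSTM3 (-0.05) and MGST2 (-0.003). Of 22 NRF2 targets tested, 4 were higher in NRF2 cells, with the ferritin light chain gene FTL at 0.75.

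Lower GSTP1 recurred in the other populations. In PIK3CA cells it stood at 722.8, 644.3 and 778.8 CPM, below every well of the other populations under DMSO, and differed from HcRed by -0.63 (SE 0.06, adjusted p = 4.79e-15). In FGFR1 cells it stood at 934.4, 886.9 and 892.1 CPM, which gave -0.35 on the log2 scale (SE 0.09, adjusted p = 0.026). NRG1 cells, at 956.7, 946.7 and 1073 CPM, gave -0.13 (adjusted p = 0.078) and no called member by limma-voom, edgeR or DESeq2, with 2 of 9 members and 13.4% of all genes at an unadjusted p below 0.05. These comparisons shared the 3 HcRed wells. PIK3CA cells had 2 members called, the other being MGST3 (-0.20, adjusted p = 0.020), where 5.37% of genes were called, FGFR1 cells 1, where 0.905% were, and NRG1 cells 0, where 3.1% were. The FGFR1 call was lost without FGFR1 replicate 1 or any of the HcRed wells (adjusted p up to 0.327), by edgeR and with the replicate number as a block (0 of 9 members, adjusted p = 0.149), and MGST3 lost its call without HcRed replicate 3 or PIK3CA replicate 1.

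FAT1 cells differed from GFP cells most in GSTM3. It stood at 446.9, 348.9 and 413.5 CPM in FAT1 cells and at 188.8, 189.4 and 206.7 CPM in GFP cells. The groups did not overlap, and the log2 fold change was 1.09 (SE 0.09, adjusted p = 2.22e-19), 2.13-fold. MGST1 was higher by 0.25 (SE 0.04, adjusted p = 2.02e-06), and GSTP1 was lower, at 912.3, 875.6 and 851.8 CPM against 1260, 1230 and 1361 CPM, which gave -0.485 on the log2 scale (SE 0.05, adjusted p = 4.88e-13). The fit called 3 of 9 members and 14.1% of 11142 genes.

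CDKN2A cells, compared with the same 3 GFP wells, had 6 of 9 members called, where 17.9% of 11575 genes were. GSTM3 was higher, at 381.6, 367.2 and 366.2 CPM, by 0.82 on the log2 scale (SE 0.12, adjusted p = 4.61e-08). The other 5 were lower. GSTK1 stood at 121.6, 102.2 and 117.6 CPM against 280.3, 279.1 and 266.1 CPM in GFP cells, which gave -1.38 on the log2 scale (SE 0.13, adjusted p = 2.62e-15).

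MGST1 stood at 928.3, 889.3 and 996.4 CPM in CDKN2A cells against 1608, 1672 and 1715 CPM in GFP cells. These were the lowest levels of the most abundant member in the 82 wells, and gave -0.94 on the log2 scale (SE 0.09, adjusted p = 1.3e-14). MGST3 was lower by a log2 fold change of -0.64 (adjusted p = 2.18e-07) and GSTP1 by -0.41 (adjusted p = 0.00044). GSTZ1 passed at -1.43 (adjusted p = 0.038) on 1 to 9 counts a well, and did not pass by edgeR, by DESeq2, or without CDKN2A replicate 3 (-0.74, adjusted p = 0.337), GFP replicate 1 or GFP replicate 3. Among NRF2 targets, 5 of 24 tested genes were higher and 3 lower in CDKN2A cells, and SLC7A11, the cystine carrier that feeds glutathione synthesis, was higher by 1.23 (adjusted p = 3.25e-08).

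The control populations differed from each other too. GFP cells had more GSTP1 (0.21, adjusted p = 0.00019), MGST3 (0.385, adjusted p = 2.69e-08) and GSTK1 (0.23, adjusted p = 0.047) than HcRed cells. MGST2 was lower, at 136, 108.8 and 115.1 CPM against 151.5, 176.5 and 165.7 CPM (-0.42, SE 0.10, adjusted p = 0.004). This fit called 4 of 9 members and 10.8% of 11134 genes, and the GSTK1 call did not hold without 5 of the 6 wells. GSTP1 levels under DMSO descended from GFP (1284 ± 68.3 CPM, SD, n = 3 in each population) through HcRed (1147 ± 33.1), CDKN2A (1049 ± 46.4), NRG1 (992.2 ± 70.2), FGFR1 (904.5 ± 26), FAT1 (879.9 ± 30.5) and NRF2 (855.5 ± 23.4) to PIK3CA (715.3 ± 67.6), and the wells of CDKN2A and NRG1, of FGFR1 and FAT1 and of FAT1 and NRF2 overlapped.

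**Figure D3:**
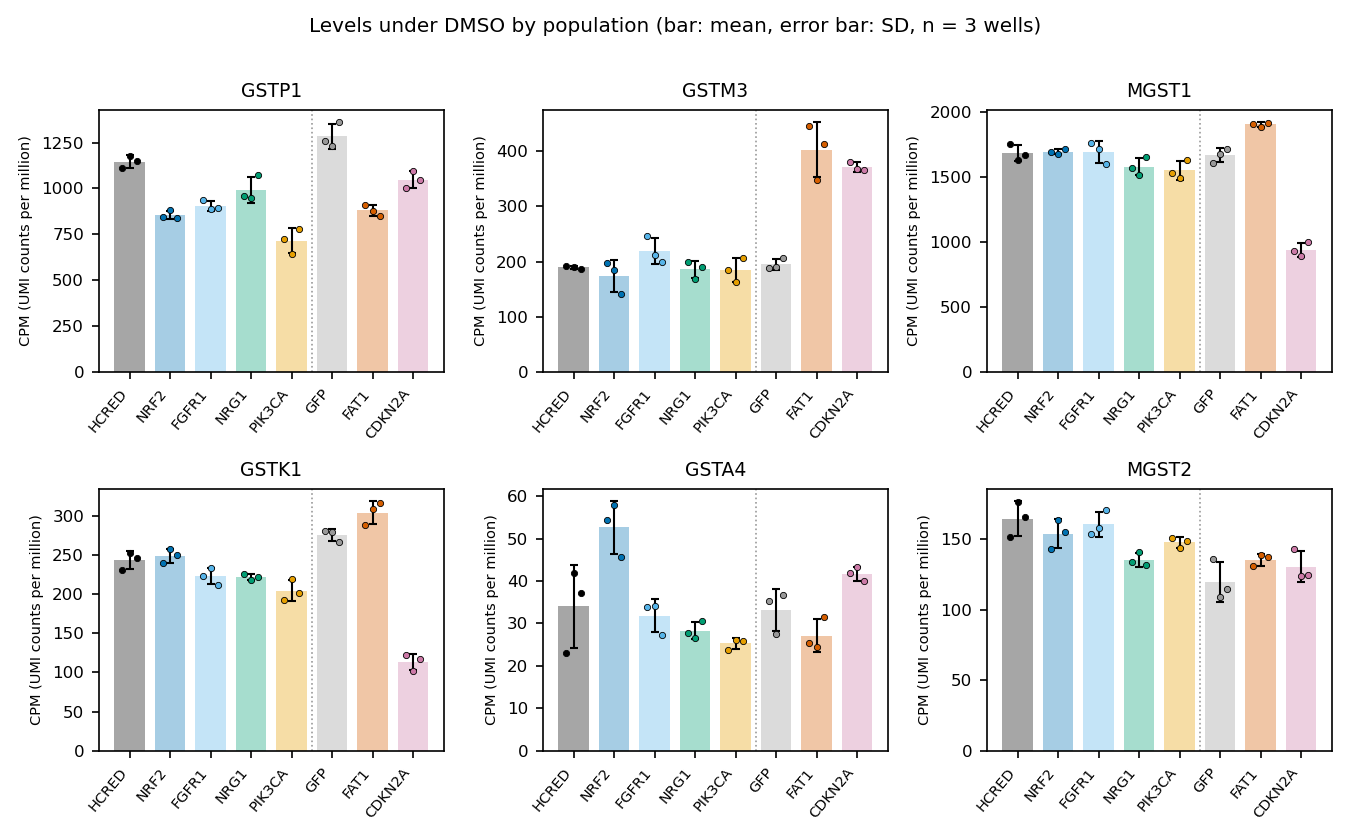
CPM of 6 members under DMSO (vertical axes) in the 8 populations, with bars for the mean, error bars for the SD and points for the 3 wells, and a dotted line between the overexpression and knockout sets. GSTM3 stands at 348.9 to 446.9 in FAT1 and CDKN2A cells and at 141.5 to 246.6 elsewhere, and GSTK1 and MGST1 are lowest in CDKN2A cells.

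Epithelial and basal markers moved with the populations. Of 9 basal genes tested, 5 were lower in PIK3CA cells (median log2 fold change -0.90), 6 in FAT1 cells (-0.61), 5 in NRG1 cells (-0.47), 4 in FGFR1 cells (-0.36), 2 in CDKN2A cells (-0.33), and 3 each in NRF2 cells and in GFP against HcRed cells. Of all genes tested, 1.97% were lower in PIK3CA, 7.62% in FAT1, 0.998% in NRG1 and 0.404% in FGFR1 cells. The share was 9.28% in CDKN2A cells, 1.53% in NRF2 cells and 4.86% in GFP against HcRed cells. The basal markers summed to 1207 to 1308 CPM in HcRed wells, 798.9 to 930.2 in FGFR1, 633.5 to 737.9 in NRG1 and 576.5 to 648.1 in PIK3CA wells. Of 6 epithelial genes, 4 were higher in PIK3CA cells and 3 in FAT1 cells, where 3.4% and 6.49% of all genes tested were higher. The sum of the 6 was nevertheless lower in PIK3CA wells (469.8 to 525.3 CPM) than in HcRed wells (552.9 to 606.6 CPM). It was higher in FAT1 wells (485.9 to 528.5 CPM) than in GFP wells (372.2 to 415.6 CPM). Calls in the opposite direction are not given here for either list. The part of these markers in the transferase differences was not tested.

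The population differences were examined again in the wells of the other chemicals, in 11 fits with wells that the DMSO fits did not use. Of 99 member tests 29 were called, 14 higher and 15 lower, against 6.26% of all gene tests in those fits. GSTM3 was higher in FAT1 than in GFP cells under CSC (0.69), BaP (1.01) and NNK (0.96). GSTP1 was lower in FAT1 cells under the same 3 chemicals (-0.41, -0.29 and -0.41), in PIK3CA and NRF2 cells under CSC and NNK, and in FGFR1 cells under NNK. Against HcRed it stood at -0.59 and -0.69 in PIK3CA cells, -0.23 and -0.26 in NRF2 cells and -0.36 in FGFR1 cells.

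MGST2 was higher in FAT1 cells than in GFP cells under CSC (0.43), BaP (0.39) and NNK (0.38), and lower in GFP than in HcRed cells under CSC (-0.57) and NNK (-0.515). MGST1 was higher in FAT1 cells under each of the 3 chemicals (0.14 to 0.285) and lower in PIK3CA cells under CSC (-0.13) and NNK (-0.16). GSTK1 was higher in FAT1 cells under BaP (0.32) and NNK (0.485). Of the 29 calls 12 were lost when some single well was left out. In FAT1 cells these were MGST2 under each chemical (adjusted p up to 0.149), MGST1 under CSC and BaP (up to 0.596), GSTK1 under BaP (0.0946), GSTA4 under CSC (0.183) and MGST3 under NNK (0.108). The others were MGST1 in PIK3CA cells under CSC and NNK (up to 0.258), GSTP1 in NRF2 cells under CSC (0.12) and GSTO1 in GFP cells under CSC (0.108). In NRG1 cells under NNK, where replicate 2 stood apart, no member was called. CDKN2A cells had fewer than 3 such wells under each other chemical and were not tested there. Their MGST1 level in the 2 BaP wells (1189 and 1323 CPM) and the NNK well (1278 CPM) lay below every well of the other populations under those chemicals, and their GSTM3 level (526.6 and 505.0 CPM, and 405.5 CPM) lay near that of FAT1 cells.

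**Figure D4:**
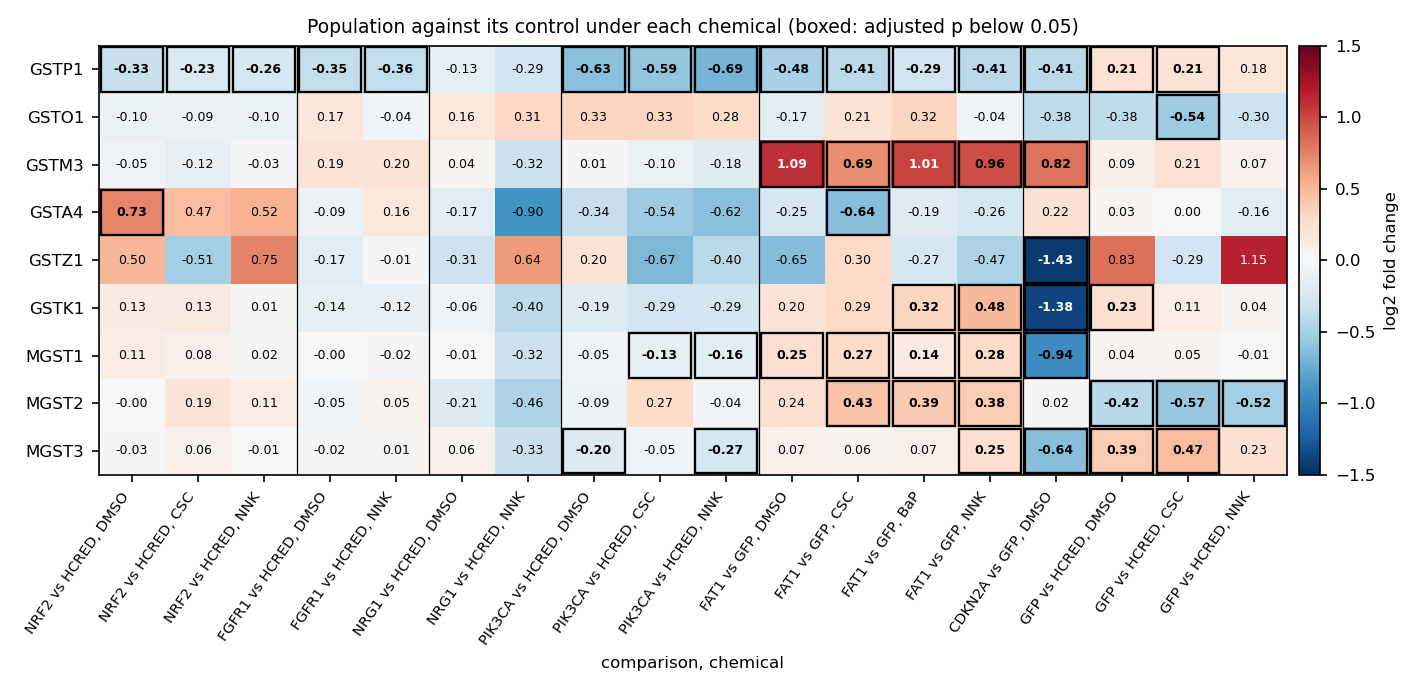
Log2 fold change of each member (rows) in each population against its control under each chemical (columns), coloured from -1.5 to 1.5 and boxed where the adjusted p was below 0.05. The GSTP1 row is negative in the columns of NRF2, FGFR1, NRG1, PIK3CA, FAT1 and CDKN2A cells, and the GSTM3 row is boxed in the FAT1 and CDKN2A columns.

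Other genes of the pathway were counted from lists. Of 26 genes of glutathione supply and recycling, 24 were tested under CSC, 8 of them higher and 1 lower, with the thioredoxin reductase TXNRD1 at 0.93 (adjusted p = 4.6e-28) and the glutathione peroxidase GPX2 at 1.39 (adjusted p = 1.28e-15). Under BaP 8 of 25 were higher and under NNK 4 of 24, with 1 lower. Of NRF2 targets, 14 of 23 were higher under CSC, 13 of 23 under BaP and 5 of 23 under NNK, where 2 were lower, and the median log2 fold changes were 0.43, 0.32 and 0.09. The quinone reductase NQO1 was higher by 1.27, 0.86 and 0.28.

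Of AHR targets, 6 of 9 were higher under CSC, 5 of 10 under BaP and 5 of 10 under NNK, with CYP1B1, a cytochrome P450 that oxidises BaP, at 3.65, 3.42 and 1.54. Of 9 tested genes that process or export glutathione conjugates, none was called under any of the 3 chemicals by limma-voom. Among the other transferase and MAPEG genes, the prostaglandin E synthase PTGES was higher under CSC (0.78, adjusted p = 4.52e-08), ALOX5AP was lower (-1.39, adjusted p = 0.0082), and GSTO2 was higher under BaP (0.28, adjusted p = 0.019). The NRF2 and AHR lists share NQO1, and the NRF2 list shares genes with that of glutathione supply and recycling.

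Patterns over groups were compared for the 8 members above 20 CPM. Pearson correlations with 3358 genes were taken over the 25 groups of 3 wells, on group means of log2 (CPM + 1). Groups share populations and chemicals, so the values are descriptions. GSTK1 was most like the ribosomal protein genes RPL13A (r = 0.932), RPL32 (0.918) and RPS6 (0.90). MGST3 was most like ATP5H (0.937), a subunit of ATP synthase, DAZAP2 and ATP5S. GSTA4 was most like KRT17 (0.871), a basal keratin, and NFE2L2 (0.803), which the NRF2 population overexpresses, followed by MPZL2.

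GSTP1 was most like BAG5 (0.849), TM4SF1 and TSTD1, and GSTM3 like HADHB (0.87), SEP15 and RPL39. MGST1 was most like C7orf73 (0.852), VPS4B and CDK5RAP2. MGST2 was most like TCEB2 (0.903), GM2A and PHF20, and GSTO1 like TIMM23 (0.879), TFAM and NOLC1.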

How the data were processed

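Expression was measured by 3′DGE in 95 wells. The authors aligned the reads to human transcripts with BWA (version 0.7.10, per the submitters' processing notes, which name hg19) and deposited raw UMI counts per gene and well. The 9 members and the gene lists were chosen with earlier results of these data known. From the deposited counts, CPM were computed by scaling each well's counts to a total of 1000000. The 82 wells with 1-digit replicate numbers entered the fits, since the meaning of the 2-digit numbers is not given in the sources used here.

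Genes with a mean count above 1 in the compared wells were scaled by TMM and tested two-sided by limma-voom (limma 3.58.1, edgeR 4.0.16, R 4.3.3), with Benjamini-Hochberg adjustment over all genes tested and a threshold of 0.05. Groups of 3 wells were compared, and chemicals were compared with population as a covariate. A fit of 6 wells left 4 residual degrees of freedom for a gene's own spread. To these limma-voom added prior degrees of freedom pooled over genes, 18.66 or more in such fits. In FGFR1 against HcRed cells under DMSO the prior was infinite, so that a gene's own spread did not enter its p-value. The steps were also run on simulated counts with a single fixed spread, no outlying well and changes larger than most of those reported here. Those runs do not test the smaller changes. Alternatives were edgeR's quasi-likelihood test, DESeq2 (1.42.0), median-ratio size factors, library totals alone, no filter, a replicate block, a single fit over all groups, leaving out each well, adding the 2-digit wells, and adding chemicals. Same-numbered wells deviated together little (mean correlation -0.059 to 0.097, 0 of 35 group pairs above 0.1 throughout), and the main fits did not pair wells by number. This check cannot exclude a weak pairing. In FAT1 cells the correlations with the DMSO wells were positive for each number, at 0.046 to 0.158 under CSC, 0.052 to 0.136 under BaP and 0.013 to 0.161 under NNK. All members are named. Of each list, a called gene among its 3 smallest adjusted p could be named. The genes most like each member above 20 CPM were the 3 with the highest correlation. SLC7A11 and NFE2L2 fell under these rules.

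Depth was 692446 to 1895735 counts per well, which limits GSTZ1 most. Positions come from the hg19 annotation, and promoters from RefSeq (GRCh38.p14).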

Additional observations from a re-analysis of the deposited data

Results flagged for a closer look

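The 13 wells with 2-digit replicate numbers entered no main comparison. For 8 of the 9 members, all such wells of at least 1 group lay above every DMSO well of the population. How many of all genes separated in this way was not counted, so these counts are descriptions of the members alone. MGST1 and GSTM3 lay above every DMSO well of the same population in all wells of 6 of the 6 groups. MGST1 stood at 1296 to 1355 CPM in CDKN2A CSC wells, against 889.3 to 996.4 under DMSO, and at 2377 to 2488 in FGFR1 CSC wells, against 1596 to 1759. GSTM3 stood at 485.8 to 555.7 CPM in CDKN2A CSC wells, against 366.2 to 381.6 under DMSO. The same held in 3 groups for GSTA4, in 2 groups each for GSTK1, GSTZ1 and MGST3, and in 1 group each for GSTP1 and MGST2. GSTK1 went the other way in FGFR1 CSC wells, at 199.6 to 211.4 CPM against 212.0 to 232.6 under DMSO, and GSTO1 lay above in 0 groups. With groups of 2 or 3 such wells the differences were not tested. Separation in only 1 to 3 of the 6 groups can arise from the spread between wells.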

How the results depend on the processing

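Members called in the main fits were followed under the alternatives. Of 1770 such fold changes, 1624 kept their direction and side of the threshold, 146 fell short of it and 0 turned in sign. Of the 1770, 1050 came from leaving out 1 well and reuse nearly all data of the main fit, so agreement there was likely beforehand. Among these 78 fell short. A single fit over all groups lost 31 of 98 calls, and library totals alone lost 12 of 98. Member tests not called in the main fits are outside this count, and some of them gained a call. In FGFR1 cells 0 members were called by edgeR and 0 with a replicate block, which changed no other count of called members by over 1.5 times. With library totals alone 1 member was called in NRG1 cells, 4 in PIK3CA cells, 6 in the single-population NNK fits and 3 in BaP against NNK. A single fit over all groups called 1 in PIK3CA cells, 2 in GFP cells, 6 and 1 in the single-population BaP and NNK fits, and 1 in BaP against NNK. With chemical as a covariate over all chemicals 6 were called in PIK3CA and 7 in FAT1 cells. Leaving out 1 well gave 2 to 5 under NNK, 0 to 2 in FGFR1, 0 to 1 in NRG1 and 1 to 2 in PIK3CA cells. The cause was not tested.

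Over all genes, NNK called 819, and 2230 without NRG1 NNK replicate 2 or 2145 with no filter. DESeq2 called 351 in NRF2 (limma-voom 552), 51 in FGFR1 (103), 217 in NRG1 (351), 341 in PIK3CA (603), 856 in FAT1 (1572), 1247 in CDKN2A (2070) and 659 in GFP cells (1201). A single fit called 440 under CSC (662), 199 in NRF2, 73 in NRG1 and 329 in PIK3CA cells, 311 in CSC against BaP (517) and 194 in BaP against NNK (112), which also rose to 223 with library totals and 567 without NRG1 NNK replicate 2. Library totals called 206 in FGFR1 cells. Adding the 2-digit wells gave 1130 under CSC, 1924 under BaP (1030) and 1395 under NNK, and 995, 1872 and 1329 with wells that share a first digit summed. Adding chemicals gave 1199 in NRF2, 364 in FGFR1, 48 in NRG1, 1462 in PIK3CA, 3696 in FAT1 and 2559 in GFP cells. Leaving out 1 well gave 50 to 316 in FGFR1 and as few as 204 in NRG1 cells. The interaction fits called 0 to 26 genes each, and 0 to 55 under the alternatives. In NRG1 against HcRed cells under NNK the median log2 fold change was 0.012, and 0.151 with library totals alone. Library totals alone moved that median from 0.028 to 0.132 in CDKN2A cells under DMSO. It moved the share of called genes that were higher from 51.4% to 35.5% under BaP, 42.4% to 32% under NNK (57.2% with median-ratio size factors), 34.0% to 63.1% in CSC against BaP, 68.8% to 42.2% in NRF2, 67.8% to 35.3% in NRG1, 63.3% to 44.3% in PIK3CA, 46.0% to 35.9% in FAT1, 48.1% to 61.6% in CDKN2A and 55% to 43.2% in GFP cells.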
